A study of Mus musculus with 3 samples.

Results

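Expression of 7 genes tied to red cell formation was followed in blood stem and progenitor cells of mouse fetal liver: the carbonic anhydrase genes Car1, Car2, Car3 and Car13, the transferrin receptor gene Tfrc, the haem synthesis gene Cpox and the haem oxygenase gene Hmox2. They were picked by gene symbol and make up 7 of the 38205 gene identifiers listed. All 7 had 1 row each with the status OK in every library. The samples were LSK cells, which lack lineage markers and display Sca1 and c-Kit, taken at E14.5 from C57Bl/6 embryos. RNA was sequenced from embryos homozygous for a DNMT3B7 transgene (2 transgenic alleles), from hemizygous embryos (1 allele) and from wild-type (WT) embryos (0 alleles). DNMT3B7 is a shortened protein made from DNMT3B, one of the enzymes that methylate DNA. There was 1 library per genotype, each from the pooled cells of 4 to 5 embryos, so no value below has a replicate check, no test between genotypes was possible, and each difference compares libraries. The promoter of the transgene is not given in the sources used here, and its expression was not analysed, so the genotype labels were not checked on it.

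Carbonic anhydrases catalyse the exchange of carbon dioxide and water with bicarbonate and protons. The cytosolic forms made from Car1 and Car2 are abundant in red cells, that from Car3 is best known from muscle, fat and liver, and that from Car13 is found in several tissues. Iron bound to transferrin enters cells through the receptor made from Tfrc, and dividing erythroid precursors carry large amounts of it. Cpox encodes coproporphyrinogen oxidase, an enzyme of the later part of haem synthesis, and Hmox2 encodes the constitutive enzyme that breaks haem down. Stem and progenitor cells also divide and respire, so none of the 7 genes is confined to red cells.

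The 4 carbonic anhydrase genes stand together on chromosome 3, in the order Car13, Car1, Car3 and Car2, and their coding sequences are related. Between pairs of them 62.5% (Car2 and Car13) to 67.3% (Car1 and Car3) of aligned coding bases were identical. The stretches of 48 coding bases given here, from GENCODE release M21 transcripts, show how far apart the genes are around a site that all 4 of them hold. Capitals mark the codons of a pair of zinc-binding histidines, the codon between them and the tryptophan codon after them.
Car2: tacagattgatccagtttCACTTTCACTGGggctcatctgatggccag
Car1: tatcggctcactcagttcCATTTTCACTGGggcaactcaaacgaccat
Car13: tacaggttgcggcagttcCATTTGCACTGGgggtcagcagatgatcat
Car3: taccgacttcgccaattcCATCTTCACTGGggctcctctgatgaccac
No stretch of 50 bases of Car2, Car3 or Car13 occurred in a transcript of another gene, on either strand. For Car1, 13.4% of such stretches also occurred in Gm5843, a gene model that lies between Car13 and Car1, so reads of those stretches cannot be assigned to one of the pair. By this search, only the level of Car1 is uncertain in this way. The search took exact matches in GENCODE M21 transcripts only and left out reads with mismatches and copies elsewhere in the genome. Whether the deposited values separate the 4 genes in full was not tested.

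Tfrc mRNA is known to carry iron-responsive elements, hairpins in its 3′ UTR that iron regulatory proteins bind when iron is scarce, which protects the mRNA from decay. A search of the longest coding Tfrc transcript, of 4890 bases, for a C, 5 bases, the loop CAGTGN and 5 bases that pair with the first 5 found 4 matches, all after the end of the coding sequence at base 2432. They are shown because this region ties the level of Tfrc mRNA to iron. Each is given with 25 bases, and capitals mark the loop.
IRE1: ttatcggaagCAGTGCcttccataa
IRE2: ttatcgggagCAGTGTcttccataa
IRE3: atatcggagaCAGTGAtctccatat
IRE4: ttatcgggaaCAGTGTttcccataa
The values below count Tfrc mRNA as a whole and hold no information on the binding of these elements.

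Cpox is shown with its promoter because GATA1, the main transcription factor of the erythroid lineage, binds GATA sequences and is known for activating haem synthesis genes. The RefSeq window of 300 bases, chr16:58669958-58670257 on the plus strand of GRCm38.p6, runs from 250 bases before to 50 bases after the annotated start. Capitals mark the matches to AGATAA and TGATAA, searched on both strands.
Cpox: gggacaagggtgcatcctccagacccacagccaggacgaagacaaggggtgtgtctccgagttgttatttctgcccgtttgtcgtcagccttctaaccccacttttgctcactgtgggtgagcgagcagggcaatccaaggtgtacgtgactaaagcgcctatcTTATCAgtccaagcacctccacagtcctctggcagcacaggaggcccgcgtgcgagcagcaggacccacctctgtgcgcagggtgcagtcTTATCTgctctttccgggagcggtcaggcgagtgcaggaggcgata
Each motif matched at 1 place, TGATAA as its reverse complement at bases 165 to 170 of the window and AGATAA as its reverse complement at bases 255 to 260, 86 bases before and 4 bases after the annotated start. Of 32544 promoter windows of the same length, 11.2% held AGATAA and 8.91% held TGATAA on either strand. A match describes the letters only. The same set held 2 windows for Tfrc and 3 for Hmox2, whose own matches were not looked up, so the matches are not shown to be particular to Cpox.

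Levels are given as deposited FPKM (sequenced fragments of a gene scaled by the length of its transcripts and by depth) divided by 4245 in all 3 libraries, called value here. FPKM is per length, so values of different genes can be set side by side. With small RNA genes left out, the estimated fragments came to 2290000 in the homozygous, 2970000 in the hemizygous and 2980000 in the WT library. High values were concentrated in 10 segments that each ran from the start of a chromosome to a fitted break, and many genes beyond the breaks were listed at 0. The segment of chromosome 16 took in 548 of its 581 fitted genes and that of chromosome 3 took in 34 of 914. Comparisons were limited to the 1454 genes inside the segments and on the mitochondrial genome, 825 of them on chromosome 16. Tfrc, Cpox and Hmox2 lie inside the chromosome 16 segment. On chromosome 3 the segment ended at Car2 itself. With the 7 genes left out of the fit, the break fell between 1810022K09Rik, the gene before Car13, and Gm9733, the protein-coding gene after Car2, so that fit does not place the 4 carbonic anhydrase genes on either side. Ythdf3, which encodes an RNA-binding protein that most cells make and lies a few genes beyond Car2, was listed at 0 in all 3 libraries. Whether reads of Car2 were counted in full at the edge of the segment was not tested.

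**Figure D1:**
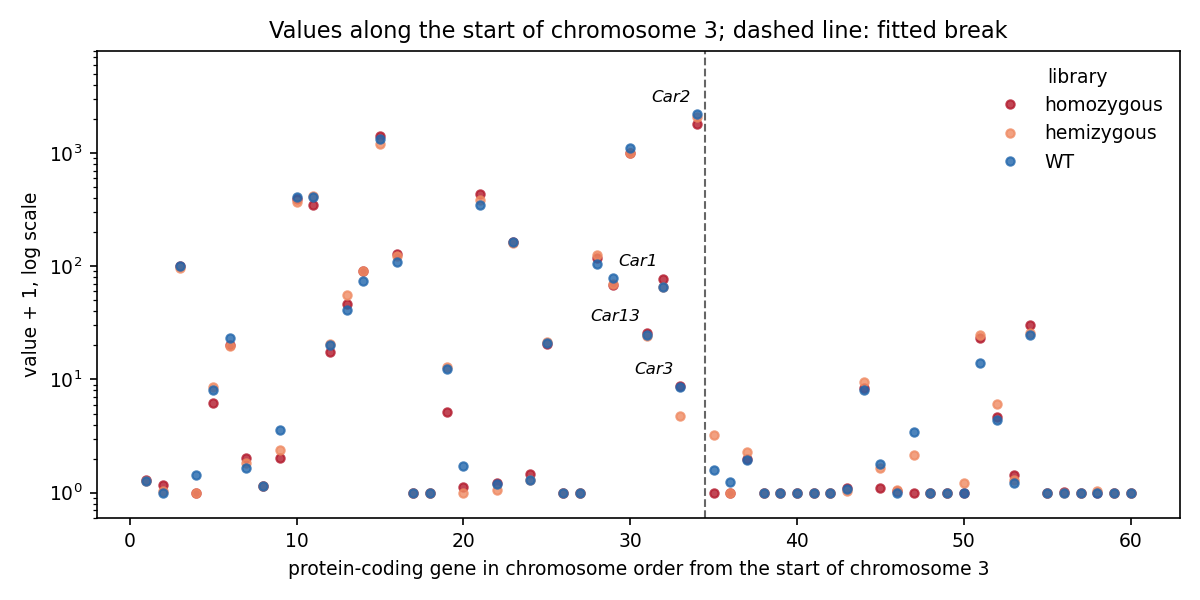
Values + 1 (vertical axis, log scale) of the first 60 protein-coding genes of chromosome 3 in chromosome order (horizontal axis), with 1 point per library. Car2 is the highest gene shown and the last one before the fitted break (dashed line), and most genes after it sit at or near a value of 0.

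The labels of the cells could not be checked on these tables. Ly6a and Kit, the genes of Sca1 and c-Kit, lie outside the segments, where Ly6a was listed at 0 in all 3 libraries and Kit at 0.405 in the homozygous, 0.731 in the hemizygous and 0 in the WT library. Of 37 genes listed as defining red cells, among them globin genes, Gata1, Klf1 and Epor, 34 were matched and none lay inside a segment. Outside the segments, Slc4a1, which encodes the anion exchanger of the red cell membrane, was listed at 11.0 in the homozygous, 7.17 in the hemizygous and 2.13 in the WT library, and its part in the values of the 7 genes was not tested. The 7 genes are thus described as genes with known roles in red cells, and the share of erythroid cells in the sorted cells was not tested. In RNA of pooled cells, fewer cells of a type and less RNA per cell cannot be told apart.

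Car2 was by far the highest of the carbonic anhydrase genes. Its values were 1786 in the homozygous, 2091 in the hemizygous and 2200 in the WT library, which placed it 15th, 15th and 13th among the 922, 924 and 916 nuclear genes that were inside the segments and had a value of at least 1. The homozygous library was the lowest of the 3. The log2 ratio of value + 1 was -0.30 ± 0.03 (counting standard error, SE) for homozygous over WT and -0.07 ± 0.03 for hemizygous over WT. These SEs come from the estimated fragments, 4670, 6050 and 6030 in the same order of libraries, and cover counting error only. Scaling the libraries to equal sums (sum scaling) turned both log2 ratios to positive ones, 0.12 and 0.08. They were negative under nuclear sum scaling (-0.24 and -0.04) and median-ratio scaling (-0.26 and -0.10), so the direction of Car2 depends on whether sum scaling is used.

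Car1 encodes the other carbonic anhydrase that is abundant in red cells, and its values were much lower than those of Car2. They were 76.7 in the homozygous, 65.0 in the hemizygous and 64.7 in the WT library, near the middle of the genes ranked. The homozygous library was the highest, and the other two differed by less than counting error. The log2 ratio was 0.24 ± 0.12 for homozygous over WT, with a 95% counting interval that reached 0, and 0.01 ± 0.13 for hemizygous over WT. Gm5843, with which Car1 shares stretches, was at 14.3, 15.0 and 12.3 in the homozygous, hemizygous and WT libraries. Under sum scaling the log2 ratio of Car1 for homozygous over WT was 0.66.

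Car13 was nearly level across the libraries, with values of 24.6 in the homozygous, 23.3 in the hemizygous and 23.7 in the WT library. Its log2 ratios were 0.05 ± 0.15 for homozygous over WT and -0.02 ± 0.14 for hemizygous over WT. The 95% counting intervals, -0.23 to 0.33 and -0.30 to 0.26, leave room for differences in either direction. Under sum scaling both ratios were positive (0.45 and 0.13).

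Car3 was the lowest of the 7 genes and the one that differed most between libraries. Its values were 7.74 in the homozygous, 3.77 in the hemizygous and 7.59 in the WT library, from an estimated 35.5, 19.1 and 36.5 fragments. The hemizygous library was low, and the other two were close to each other. The log2 ratio was -0.85 for hemizygous over WT (95% counting interval -1.65 to -0.05), 0.88 for homozygous over hemizygous (0.07 to 1.68) and 0.03 for homozygous over WT (-0.64 to 0.69). The width of these intervals was computed without the pseudocount of 1 that the ratios hold, so they are rough at such low values. Without a pseudocount the hemizygous value was 0.496 times the WT value, a difference of 2.01-fold, and the homozygous value was 2.06 times the hemizygous one. The log2 ratio for homozygous over hemizygous passed 1 with a pseudocount of 0.1 (1.02) and under sum scaling (1.11).

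**Figure D2:**
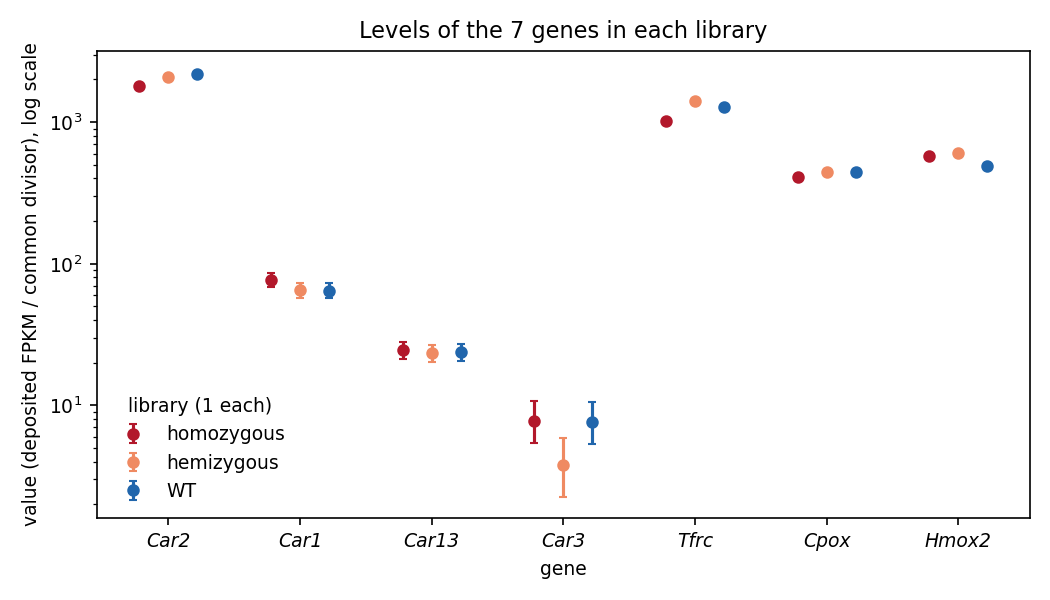
Value of each gene (vertical axis, log scale) in each of the 3 libraries, with bars for the 95% Poisson counting interval from estimated fragments. Car2 and Tfrc lie above 1000 in every library and Car3 lies below 10 in every library, with its lowest value (3.77) in the hemizygous one.

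The iron uptake gene Tfrc had values of 1013 in the homozygous, 1414 in the hemizygous and 1280 in the WT library. The homozygous library was the lowest and the hemizygous the highest. The 95% counting intervals were 972 to 1050, 1370 to 1460 and 1240 to 1330 in the same order, and they cover counting error only. The log2 ratio was -0.34 ± 0.04 for homozygous over WT, 0.14 ± 0.04 for hemizygous over WT and -0.48 ± 0.04 for homozygous over hemizygous (counting SE). The ratio for homozygous over WT turned to 0.08 under sum scaling, while that for homozygous over hemizygous stayed negative under sum (-0.22), nuclear sum (-0.45) and median-ratio scaling (-0.42). Its place among the nuclear genes ranked was 38th, 20th and 25th in the homozygous, hemizygous and WT libraries. Tnk2, the nearest protein-coding gene after Tfrc, was at 101, 91.6 and 107 in the same order and had a log2 ratio for homozygous over WT of -0.09 ± 0.14.

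Cpox, on the side of haem synthesis, was close to level. Its values were 409 in the homozygous, 442 in the hemizygous and 442 in the WT library. The log2 ratio was -0.11 ± 0.06 for homozygous over WT, which turned to 0.31 under sum scaling, and 0.00 ± 0.05 for hemizygous over WT. An exon of Cpox overlaps Gpr15, a receptor gene on the opposite strand, and the strand setting of the counting is not given in the sources used here. Gpr15 was at 2.38, 4.30 and 2.50 in the homozygous, hemizygous and WT libraries, far below Cpox. Of the stretches of 50 bases of Cpox transcripts, 4.84% also occur in other genes, which are 183 in number and include Gpr15. The level of Cpox is uncertain to that extent.

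Hmox2, on the side of haem breakdown, was higher in both transgenic libraries. Its values were 574 in the homozygous, 604 in the hemizygous and 493 in the WT library. The log2 ratio was 0.22 ± 0.05 for homozygous over WT and 0.29 ± 0.05 for hemizygous over WT (counting SE), and both were positive under sum (0.64 and 0.45), nuclear sum (0.28 and 0.32) and median-ratio scaling (0.26 and 0.27). For homozygous over hemizygous the log2 ratio was -0.08 ± 0.05, and it was 0.19 under sum scaling. Hmox2 shares exons with Cdip1 on the opposite strand, and 41.9% of the stretches of 50 bases of its transcripts occur in other genes, chiefly Cdip1, so without a known strand setting its level is uncertain. Cdip1 itself was at 162 in the homozygous, 174 in the hemizygous and 164 in the WT library, with a log2 ratio for homozygous over WT of -0.02 ± 0.05.

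**Figure D3:**
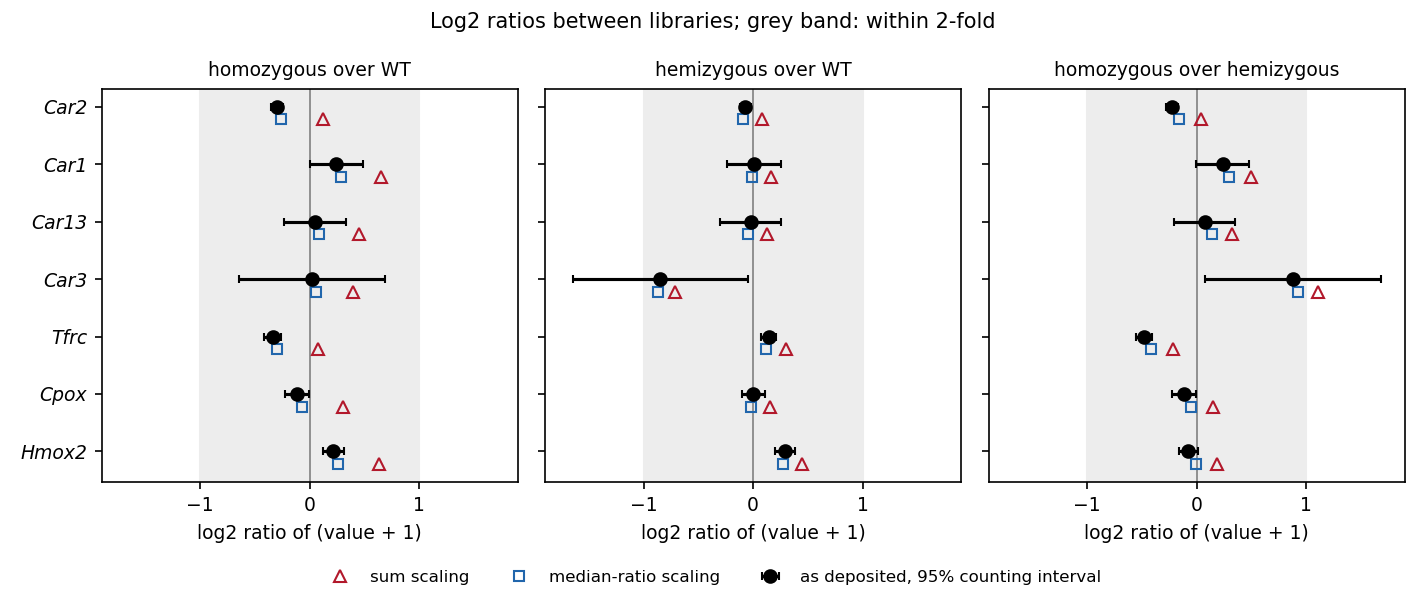
Log2 ratio of value + 1 (horizontal axis) of each gene in the 3 comparisons, with 95% counting intervals as bars and the ratios under sum scaling and median-ratio scaling as open marks. As deposited, all points lie inside the grey band of 2-fold; Car3 lies nearest to its edge, at -0.85 for hemizygous over WT and 0.88 for homozygous over hemizygous.

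No member passed a 2-fold difference in any comparison, a rule met when the log2 ratio of value + 1 is at least 1 in size. For homozygous over WT the count was 0 of 7, against 4.49% (2.19% higher and 2.3% lower) of the 957 genes measured. Genes measured are those inside the segments or on the mitochondrial genome that reached a value of 1 in either library or both. For hemizygous over WT it was 0 of 7 against 2.82% (1.88% higher and 0.941% lower) of 956 genes, and for homozygous over hemizygous 0 of 7 against 4.56% (1.66% higher and 2.9% lower) of 964 genes. With 7 genes, a count of 0 is near what these shares give. At 1.5-fold the counts were 0 of 7 for homozygous over WT, against 12.6%, and 1 of 7 in each of the other comparisons, Car3 both times, against 8.16% for hemizygous over WT and 11.4% for homozygous over hemizygous. The median log2 ratio of the 7 genes was 0.03 for homozygous over WT and 0.00 for hemizygous over WT, beside -0.04 and 0.02 over all genes measured.

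The ratios of 6 members were also set beside those of other genes that were not low. Among 641 nuclear genes that reached a value of 20 in one library or both, the middle 50% of log2 ratios for homozygous over WT ran from -0.18 to 0.11. Tfrc (-0.34) and Car2 (-0.30) lay below this range, Hmox2 (0.22) and Car1 (0.24) above it, and Cpox (-0.11) and Car13 (0.05) inside it. For hemizygous over WT the corresponding range was -0.13 to 0.15, with Hmox2 (0.29) above it and Car2 (-0.07), Car1 (0.01), Car13 (-0.02), Tfrc (0.14) and Cpox (0.00) inside it. Apart from the pseudocount, sum scaling adds 0.42 to log2 ratios for homozygous over WT and 0.16 for hemizygous over WT, for members and for other genes alike. With the pseudocount, genes with low values shift less. The ratio of Car3 for homozygous over WT went from 0.03 to 0.40. Mitochondrial genes made up 44.3% of the summed values in the homozygous, 52.5% in the hemizygous and 56.5% in the WT library. Under sum scaling all 7 genes were higher in the homozygous library than in the WT one, against 4 of 7 as deposited and under median-ratio scaling. For hemizygous over WT 4 of 7 were higher as deposited, 6 under sum scaling and 2 under median-ratio scaling. The share of all genes measured that were higher under each scaling was not counted, so these counts do not set the members apart from other genes.

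**Figure D4:**
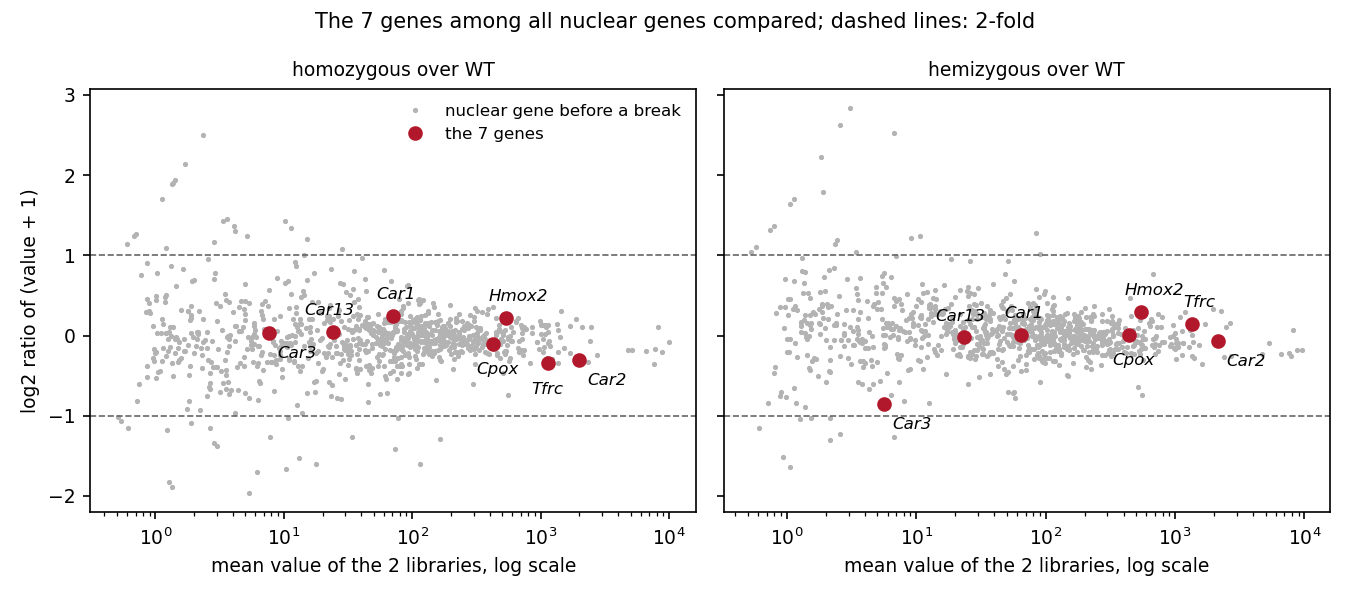
Log2 ratio of value + 1 (vertical axis) against the mean value of the 2 libraries compared (horizontal axis, log scale) for nuclear genes inside the segments (grey) and the 7 genes (red). All 7 lie between the dashed 2-fold lines; Tfrc (-0.34) and Car2 (-0.30) lie below 0 for homozygous over WT.

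Ratios between genes of the same library do not depend on how libraries are scaled. The ratio of Car2 to Car1 was 23.3 in the homozygous, 32.2 in the hemizygous and 34.0 in the WT library. The homozygous ratio was 0.685 times the WT ratio, a log2 difference of -0.55 ± 0.13 (counting SE), while the hemizygous ratio differed from the WT one by -0.08 ± 0.13. Of the summed values of the 4 carbonic anhydrase genes, Car2 made up 94.2% in the homozygous, 95.8% in the hemizygous and 95.8% in the WT library, and Car1 4.05%, 2.98% and 2.82%. Because 13.4% of the Car1 stretches are shared with Gm5843, the ratio of Car2 to Car1 carries the same uncertainty as Car1.

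Among the iron and haem genes, the ratio of Tfrc to Cpox was 2.48 in the homozygous, 3.20 in the hemizygous and 2.90 in the WT library. The difference of the log2 ratio was -0.23 ± 0.07 for homozygous over WT and -0.37 ± 0.07 for homozygous over hemizygous. The ratio of Tfrc to Hmox2, a pair chosen after the values were seen, was 1.77 in the homozygous, 2.34 in the hemizygous and 2.60 in the WT library, a log2 difference of -0.56 ± 0.06 for homozygous over WT. It carries the uncertainty of Hmox2, of whose stretches 41.9% are shared. Cpox to Hmox2, also not among the pairs planned, was at 0.713 in the homozygous, 0.731 in the hemizygous and 0.896 in the WT library. Its log2 difference was -0.33 ± 0.07 for homozygous over WT, -0.29 ± 0.07 for hemizygous over WT and -0.04 ± 0.07 for homozygous over hemizygous, with the same uncertainty of Hmox2. The ratio of Car2 to Tfrc was 1.76, 1.48 and 1.72 in the homozygous, hemizygous and WT libraries. The log2 difference of this ratio was 0.04 ± 0.05 for homozygous over WT and -0.22 ± 0.04 for hemizygous over WT.

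**Figure D5:**
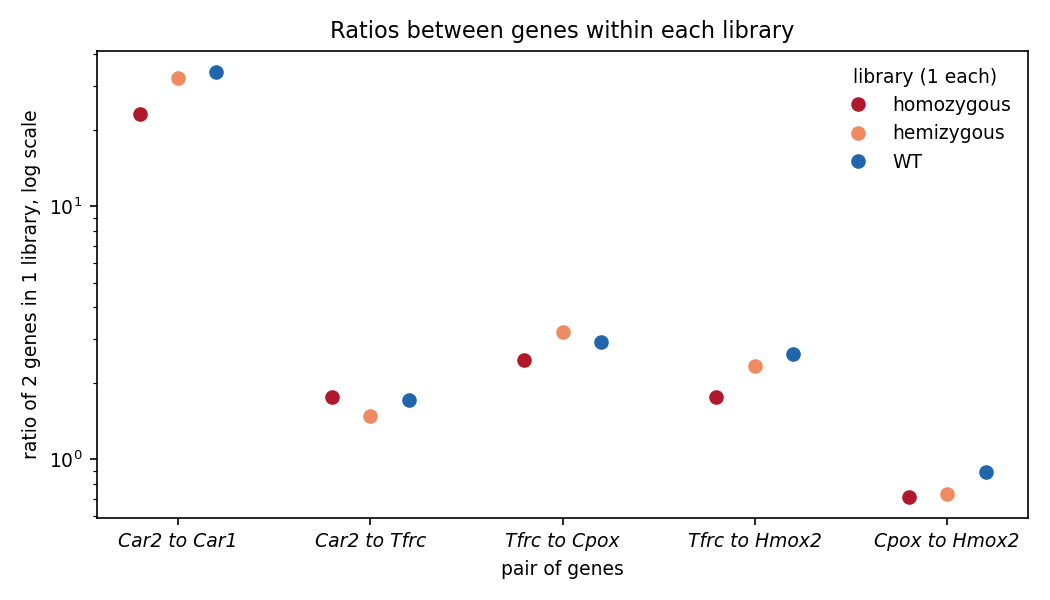
Ratio of one gene to another within a library (vertical axis, log scale) for 5 pairs, with 1 point per library. All pairs but Car2 to Tfrc are lowest in the homozygous library, with Car2 to Car1 at 23.3 and Tfrc to Hmox2 at 1.77. For Cpox to Hmox2 the homozygous (0.713) and hemizygous (0.731) libraries are close. Car2 to Tfrc is lowest in the hemizygous library (1.48).

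Few other genes of these pathways could be compared. Of 22 haem genes 19 were matched and 2 lay inside the segments, Cpox and Hmox2. Of 25 iron genes all were matched and 3 lay inside, of which Tfrc and Steap4, a metalloreductase, reached a value of 1. Steap4 was at 0.528 in the homozygous, 1.59 in the hemizygous and 1.18 in the WT library, and its log2 ratio for homozygous over WT was -0.51 ± 0.70. Of 16 carbonic anhydrase genes 15 were matched and 5 lay inside, the 4 members and Car15, a membrane-bound form on chromosome 16. In these 3 lists Car15 was the only gene that passed the 2-fold rule for homozygous over WT, as lower, at 1.24 in the homozygous, 2.81 in the hemizygous and 4.79 in the WT library. This rests on an estimated 2.34, 5.86 and 9.49 fragments, and 58.3% of its stretches also occur in Gm20518. Its 95% counting interval for homozygous over WT was given as -3.44 to 0.69. The width of this interval, like the SE of Steap4, was computed without the pseudocount, so both are rough at such low values. No gene of the 3 lists passed the rule in the other comparisons.

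Markers of other cell types inside the segments differed between the libraries to varying degrees. The summed values of the 3 lymphoid markers inside the segments, Igll1, Vpreb1 and Vpreb2, were 192 in the homozygous, 400 in the hemizygous and 517 in the WT library. The summed values of the 2 vessel wall genes, Col4a1 and Col4a2, were 99.3, 68.1 and 52.6, and those of the 3 megakaryocyte genes Gp5, Gp1bb and Mylk were 38.7, 24.3 and 25.8 in the same order. Gp5 made up most of the megakaryocyte sum, at 30.1 in the homozygous, 17.7 in the hemizygous and 16.5 in the WT library, while Gp1bb was at 4.76, 3.09 and 5.50 and Mylk at 3.80, 3.53 and 3.79. The 2 myeloid genes, Cebpd and Mmp8, summed to 35.8, 39.7 and 45.6, the hepatocyte gene Ahsg was at 3.67, 3.49 and 3.70, and of the fat markers Fabp4 was at 4.18, 11.9 and 11.4 and Adipoq was at or below 0.215. No mast cell or macrophage marker lay inside a segment. The part of these markers in the values of the 7 genes was not tested.

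For the more abundant members, the genes with the most similar pair of log2 ratios to WT were looked up among 498 nuclear genes at a value of 50 or more in the WT library, over 3 libraries. Nearest to Car2 were Zfp358, Zfpl1 and Pet100, at distances of 0.027 to 0.060. Nearest to Tfrc were Pcnxl3 (0.022), Map4k2 and Filip1l. Nearest to Cpox were Dgcr2 (0.0074), Scaf4 and Bfar, and nearest to Hmox2 were Sf1 (0.039), Ehd1 and Dlg1. With 3 libraries such likeness describes the values and nothing further.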

How the data were processed

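Each genotype had 1 table of FPKM per gene deposited by the authors, with a status column, per the file headers. Per the submitters' processing notes, the tools were TopHat2, Bowtie2 and Cufflinks and the build was mm9; no source used here gives versions, annotation or strand setting. The files held no counts or intervals, and FPKM sums lay far above what the unit allows, so all libraries were divided by 4245. Rows with status OK were used, the highest per identifier.

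GENCODE M21 (GRCm38) matched 36216 identifiers and gave gene types, order and lengths only. Segments were fitted per chromosome by maximum likelihood on how often the mean FPKM of a protein-coding gene reached 200000, kept at a log likelihood gain of at least 5 and a share before the break of at least 20%; these settings were chosen while looking at the values. Ratios used log2(value + 1), so differences of genes with low values come out too small. Counting SEs and intervals of ratios took their width from the estimated fragments without the pseudocount and were centred on ratios with it. For genes with low values they are therefore rough. Fragments were estimated from the steps between low values: 60.1% to 63.3% of low values per library were whole multiples of 1 unit within 0.05, with a fragment length taken as 200 bases and the median transcript length. With the longest transcript they came to 4790000 in the homozygous, 5890000 in the hemizygous and 5640000 in the WT library, so counting errors are approximate and cover counting error only. Code was tested on simulated data. The members, the lists and the rule for named genes (the members, list genes and markers inside the segments, neighbours, and nearest patterns) were chosen with earlier results of these data known. Alternatives changed the pseudocount, the scaling, the filter, the fold, the rows and the genes used. Python 3.11.15, numpy 2.4.6, pandas 2.3.3, SciPy 1.17.1, Biopython 1.88 and Matplotlib 3.10.9 were used.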

Additional observations from a re-analysis of the deposited data

How the results depend on the processing

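No paired analysis was possible because each genotype had a single library, and no replicate could be left out. Of 126 log2 ratios of the 7 genes under alternatives, 109 stayed within their counting interval and 17 left it. Under sum scaling 15 left it and 6 stayed. Summing rows gave 21 of those that stayed and could not move any, because each gene had 1 row. Each of the pseudocounts, 0.1 and 5, gave another 21 that stayed, and a pseudocount hardly alters genes with high values. The share that stayed is thus no measure of robustness to scaling. Sum scaling gave, for homozygous over WT, 0.66 for Car1, 0.12 for Car2, 0.45 for Car13, 0.080 for Tfrc, 0.31 for Cpox and 0.64 for Hmox2; for hemizygous over WT, 0.083 for Car2, 0.30 for Tfrc, 0.16 for Cpox and 0.45 for Hmox2; for homozygous over hemizygous, 0.50 for Car1, 0.035 for Car2, -0.22 for Tfrc, 0.15 for Cpox and 0.19 for Hmox2. The others were Car2 at -0.24 for homozygous over WT under nuclear sum scaling and at -0.16 for homozygous over hemizygous under median-ratio scaling.

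Counts of genes past 2-fold are given as higher and lower. The set of genes counted changes with the filter and the identifiers used, and no share was computed for these settings. Counts at values of at least 5 and over all identifiers therefore cannot be set against the main counts as shares. For homozygous over WT (21 and 22) they were 1 and 9 with a pseudocount of 5, 46 and 11 under sum scaling, 10 and 12 at values of at least 5, 51 and 70 at 1.5-fold, and 518 and 464 over all gene identifiers. For hemizygous over WT (18 and 9) they were 29 and 16 with a pseudocount of 0.1, 4 and 0 with 5, 7 and 1 at values of at least 5, 48 and 30 at 1.5-fold, and 880 and 251 over all identifiers. For homozygous over hemizygous (16 and 28) they were 28 and 46 with a pseudocount of 0.1, 1 and 8 with 5, 30 and 16 under sum scaling, 5 and 14 at values of at least 5, 38 and 72 at 1.5-fold, and 307 and 865 over all identifiers. Leaving the 7 genes out of the segment fit, an alternative chosen after seeing the data, could not move these counts. Genes after 1810022K09Rik were then counted as outside the chromosome 3 segment. At most, this moves the 4 carbonic anhydrase genes and, between them, Gm5843 and RP24-123I12.1, and none of these passed 2-fold. The estimated fragments of Tfrc in the WT library were 3130 with the median and 24200 with the longest transcript, so its counting errors may be too wide. Summing the rows of an identifier changed no value of the 7 genes. The cause of the other changes was not tested. Depth limits Car3, with 19.1 to 36.5 estimated fragments per library.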
